A study of Mus musculus with 2 samples.

Results

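Cell cycle genes, which are transcribed in cells that copy their DNA and divide, were examined across the cell types of the ventral parafacial region of the mouse brainstem. A list of 43 such genes was matched by symbol in the gene table of both libraries, and all 43 were found among 28692 genes. Of these genes, 14 act in DNA replication, 28 act in mitosis and 1 encodes a cell cycle inhibitor. The region is a strip of the ventral medulla that holds chemosensitive neurons which drive breathing, together with glia and vessels.

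Transcripts were counted in single cells with 10X version 2 chemistry, which tags each captured molecule at its 3′ end with a unique molecular identifier (UMI). The untreated library came from 10-day-old C57BL6/J wild-type pups (condition WT, batch 1). The second library came from C57BL6/J pups of the same age given 4OH-tamoxifen, an estrogen receptor ligand used to switch on inducible Cre, at 0.2 mg daily for 3 days (batch 2). No Cre line or transgene was listed for either group, and each library was a pool of 8 pups, 4 male and 4 female. Condition and batch were the same split and cannot be told apart, and with 1 library per condition no test between them was possible. All intervals are 95% intervals that cover counting error only, not the spread between animals. Those of CPM, of ratios and of shares of UMIs count each UMI as independent. They therefore also leave out the spread between the cells of a class.

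After filtering, 3339 untreated and 8558 4OH-tamoxifen cells were kept, and they were sorted into 9 classes by a single marker gene each. A cell entered a class when it held at least 2 UMIs of that gene and more than of the other 8 together. Oligodendrocyte precursors were gated on *Pdgfra* (225 untreated and 453 4OH-tamoxifen cells), committed oligodendrocyte precursors on *Gpr17* (489 and 1465), oligodendrocytes on *Mog* (426 and 1318) and astrocytes on *Aqp4* (791 and 1682). Microglia were gated on *C1qa* (398 and 647), endothelial cells on *Cldn5* (303 and 450) and neurons on *Snap25* (173 and 486). Pericytes (*Kcnj8*, 44 and 29) and fibroblasts (*Dcn*, 36 and 33) were too few for firm levels. The median cell held 3176 UMIs among untreated precursors and 1835 among those of the 4OH-tamoxifen library, against 4105 and 2362 in microglia and 10799 and 7046 in oligodendrocytes. The gates were checked against 5 markers each, and all 5 precursor markers and all 5 microglial markers were present in their own class.

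Division follows a fixed order. Cyclin E marks the entry into DNA synthesis, when the MCM helicase opens the double strand, the PCNA clamp holds the polymerase and new nucleotides and histones are supplied. CDK1 with its cyclins then starts mitosis, condensin and topoisomerase II shape the chromosomes, and kinetochore, spindle and cytokinesis proteins share them out. In the early postnatal brain, oligodendrocyte precursors and microglia are known to divide, whereas neurons and myelinating oligodendrocytes have left the cycle. Genes of the replication group are classically controlled by E2F factors, and mitotic genes by the DREAM and MuvB complexes. These complexes bind a short element called CHR, often next to CCAAT boxes.

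Promoter windows from RefSeq (GRCm38.p6, 250 bases before to 50 after the start) were found for 36 of the 43 genes, and those of *Ccna2*, *Ccne2*, *Tpx2*, *Aurkb*, *Mcm4*, *Smc4* and *Fam64a* were not found. The CHR letters TTTGAA were searched on both strands and stood in 16 of 23 mitosis genes (69.6%), in 2 of 12 replication genes (16.7%) and in 20.2% of 27025 genes. E2F letters, TTTCCCGC or TTTGGCGC on either strand, stood in 5 of 12 replication genes (*Mcm3*, *Mcm5*, *Mcm6*, *Mcm7* and *2810417H13Rik*), in 0 of 23 mitosis genes and in 1.80% of all genes. CCAAT letters were in 20 of 23 mitosis genes (87.0%) and 10 of 12 replication genes (83.3%), against 41.1% of all genes. When the window was narrowed to the last 100 bases, CHR letters remained in 6 mitosis genes and E2F letters in 1 replication gene, against 6.76% and 0.681% of all genes. A match of letters describes the sequence and does not show a bound site. The windows below end at the base before the start and belong to the genes of each group with the most precursor UMIs among those holding the group's letters wholly before the start. *2810417H13Rik* has more precursor UMIs, but its E2F letters span the start. Capitals mark CHR, CCAAT or E2F letters, read 5′ to 3′ on the gene's own strand, and no printed match overlapped another. They are *Top2a* (chr11:99024190-99024378, minus strand), *Ube2c* (chr2:164769779-164769928, plus), *Mcm7* (chr5:138171884-138172058, minus) and *Mcm6* (chr1:128359706-128359855, minus).
Top2a: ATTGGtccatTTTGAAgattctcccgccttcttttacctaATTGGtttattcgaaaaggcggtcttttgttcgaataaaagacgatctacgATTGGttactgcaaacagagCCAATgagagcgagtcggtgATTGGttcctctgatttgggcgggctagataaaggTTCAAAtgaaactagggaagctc
Ube2c: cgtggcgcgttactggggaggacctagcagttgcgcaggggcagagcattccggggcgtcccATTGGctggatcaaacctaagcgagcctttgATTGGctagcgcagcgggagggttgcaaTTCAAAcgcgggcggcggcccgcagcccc
Mcm7: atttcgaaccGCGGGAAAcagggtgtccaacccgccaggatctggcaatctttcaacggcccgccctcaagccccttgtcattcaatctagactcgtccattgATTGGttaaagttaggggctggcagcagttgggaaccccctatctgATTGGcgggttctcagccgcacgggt
Mcm6: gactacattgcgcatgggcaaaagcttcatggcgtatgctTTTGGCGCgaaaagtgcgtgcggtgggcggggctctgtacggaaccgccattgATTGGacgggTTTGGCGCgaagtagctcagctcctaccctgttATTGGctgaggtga
The CHR letters of *Top2a* nearest its start began 23 bases before it and those of *Ube2c* 29 bases before it, while the E2F letters of *Mcm6* began 110 and 47 bases before the start and those of *Mcm7* 165 bases before it.

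The summed UMIs of the 43 genes were highest in oligodendrocyte precursors in both libraries. They made up 3542 UMIs per 1000000 UMIs of the class (CPM, 95% interval 3411 to 3678) in untreated precursors and 3348 CPM (3230 to 3470) in 4OH-tamoxifen precursors. This was 10.2 times (9.75 to 10.7) and 9.64 times (9.24 to 10.0) the level in all other gated cells of the same library. Microglia followed among the 7 classes with 173 cells or more, at 865 CPM (822 to 910) and 1298 CPM (1244 to 1354). Endothelial cells held 390 and 512 CPM, committed precursors 438 and 400 CPM and astrocytes 208 and 305 CPM. The lowest levels were those of neurons, at 201 and 235 CPM, and of oligodendrocytes, at 156 and 158 CPM. Untreated pericytes stood at 1697 CPM (1466 to 1954), but from 44 cells, and the 29 pericytes of the other library stood at 329 CPM (192 to 527). Within each library the interval of precursors lay above that of microglia, and that of microglia above those of the other 5 large classes. The ratio of precursors to the other gated cells ran from 6.08 to 10.2 and from 7.35 to 15.1 over the alternatives.

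**Figure D1:**
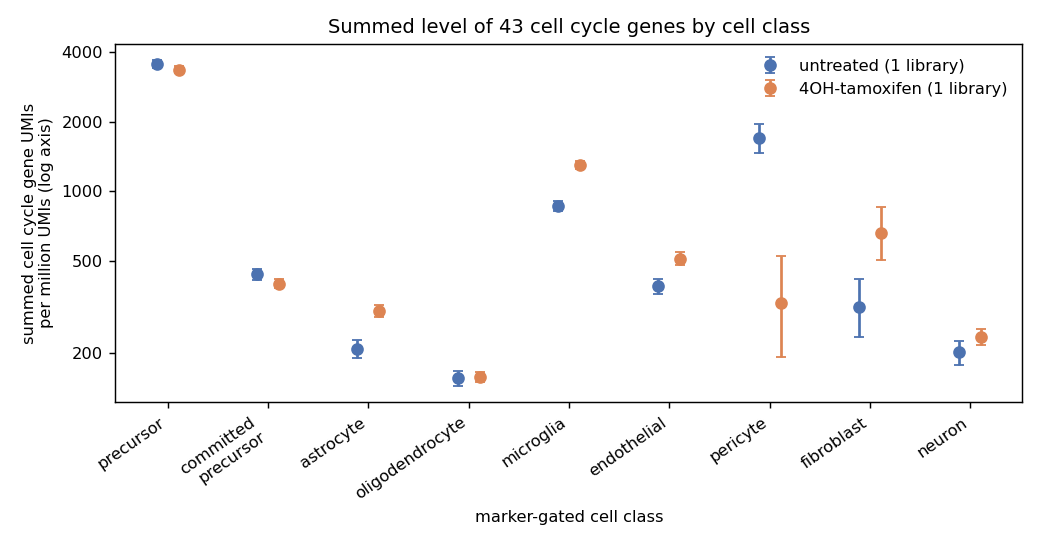
Summed UMIs of the 43 cell cycle genes per 1000000 UMIs (log axis) in each gated class of the untreated and the 4OH-tamoxifen library. Points are class sums and bars are exact Poisson 95% intervals; precursors stand at 3542 and 3348, microglia at 865 and 1298, and oligodendrocytes at 156 and 158.

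The level was carried by a minority of cells. Of untreated precursors, 77 of 225 (34.2%, interval 28.0 to 40.8) held at least 4 UMIs of the 43 genes, as did 138 of 453 (30.5%, 26.3 to 34.9) in the 4OH-tamoxifen library, where the share rose to 53.1% among cells with 1200 genes or more. These cells held 95.1% and 92.2% of all cell cycle UMIs of the precursors, with a median of 17 and 17.5 per cell and up to 146 and 112 in the highest cell. At the other end, 28.4% and 35.3% of precursors held none, so most precursors had few or no transcripts of these genes and a subset had many. Around the threshold, 13 and 23 precursors had exactly 3 UMIs and 9 and 13 had exactly 4. The cells with at least 4 were somewhat deeper, with a median of 3887 UMIs against 3010.5 in the remaining untreated precursors and 2116.5 against 1757 in the 4OH-tamoxifen library.

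In microglia, 56 of 398 cells (14.1%) and 78 of 647 (12.1%) reached 4 UMIs, with a median of 12 and 23 among them. The 4OH-tamoxifen share was 23.9% among cells with 1200 genes or more. Oligodendrocytes and neurons, which do not divide, give the background of this measure: 9.62% and 4.25% of oligodendrocytes and 12.1% and 4.32% of neurons reached 4 UMIs. Their cells were the deepest, with a median of 14512 UMIs in the untreated oligodendrocytes that reached 4. Only 1 untreated and 6 4OH-tamoxifen oligodendrocytes (0.455%) held 10 or more, as did 0 untreated and 7 4OH-tamoxifen neurons (1.44%, up to 58 UMIs in a cell), against 52 (23.1%) and 97 (21.4%) precursors. After every cell was thinned to 1000 UMIs, an alternative chosen after the data were seen that left no cell out, 20.4% (15.4 to 26.3) and 22.7% (19.0 to 26.9) of precursors still reached 4. The thinned shares were 5.78% and 8.81% in microglia, 2.45% and 2.05% in committed precursors, 1.65% and 1.56% in endothelial cells and at most 1.03% in astrocytes, oligodendrocytes and neurons. At equal depth, precursors and microglia thus stood above the non-dividing classes in both libraries. Before thinning, 12.2% of untreated endothelial cells reached 4, close to the neurons of that library and not readable as above background. In the 4OH-tamoxifen library 9.78% did (7.19 to 12.9), above its neurons (2.69 to 6.53) and oligodendrocytes (3.23 to 5.48), but after thinning its interval (0.628 to 3.18) overlapped that of neurons (0.335 to 2.38). The endothelial cells that reached 4 there had a median of 6302.5 UMIs, against 3036.5 in the rest.

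**Figure D2:**
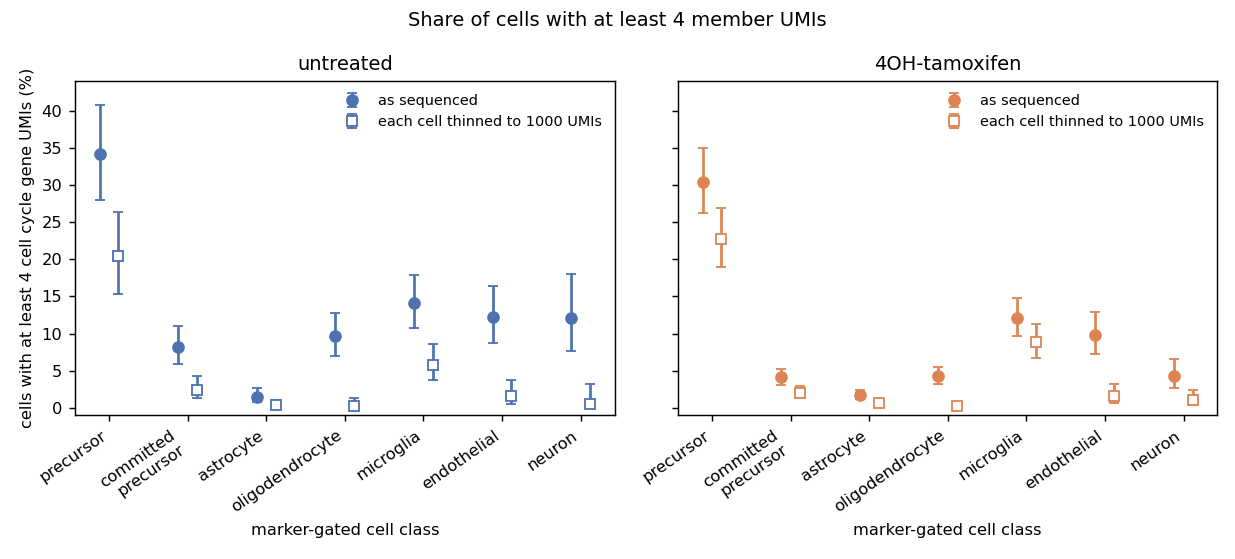
Percent of cells of each class with at least 4 UMIs of the 43 genes, before thinning and after thinning every cell to 1000 UMIs, in both libraries, with exact binomial 95% intervals. Precursors fall from 34.2% and 30.5% to 20.4% and 22.7%, whereas untreated oligodendrocytes fall from 9.62% to 0.235% and untreated neurons from 12.1% to 0.578%.

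Each of the 43 genes stood higher in precursors. The CPM of all 43 was at least 2-fold that of the other gated cells in the untreated library, where 13.1% of 13778 tested genes passed the same bound, and again all 43 in the 4OH-tamoxifen library, where 12.3% of 14312 did. A gene was tested when it had at least 20 UMIs over all gated cells of the library. The median ratio of the 43 was 12.4 (range 2.25 to 34.1) and 9.24 (2.77 to 19.6), beside 1.04 and 1.01 over all tested genes. Among these 7 classes, precursors were the highest for 42 genes in each library. The exceptions were *Mcm3* in the untreated library, at 42.1 CPM in microglia and 22 CPM in precursors, and *Ccne1* in the 4OH-tamoxifen library, at 23.3 CPM in neurons and 15.4 CPM in precursors. Microglia were the class next below precursors for 34 and 39 genes. Levels are given without division by gene length, since a molecule is counted at its 3′ end whatever its length.

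Among the replication genes, those of the clamp and its partner were abundant in precursors. *Pcna*, the sliding clamp, had 81.7 CPM (62.8 to 105) and 61.7 CPM (46.6 to 80.1), and *2810417H13Rik*, now named *Pclaf*, whose product binds PCNA, had 194 and 209 CPM. *Pcna* was the least restricted of all 43 genes, at 2.25 and 2.77 times the other gated cells, against 15.7 and 14.8 times for *2810417H13Rik*. The 6 helicase genes summed to 217 and 228 CPM and each was low by itself. *Mcm7* had 50.6 and 51.8 CPM, *Mcm6* 49.3 and 48.5, *Mcm2* 40.2 and 17.6, *Mcm5* 31.1 and 47.4, *Mcm4* 23.3 and 25.3 and *Mcm3* 22 and 37.4 CPM. The helicase genes stood 2.51 to 7.47 times above the other cells in the untreated library and 4.19 to 9.80 times in the other, which was less than most mitosis genes.

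Nucleotide supply was represented by *Rrm2*, the cycle-regulated subunit of ribonucleotide reductase, with 93.4 CPM (73.0 to 118) and 79.3 CPM (62.1 to 99.9) in precursors. *Tyms*, thymidylate synthase, had 57.0 CPM (41.5 to 76.6) and 54.0 CPM (39.9 to 71.4), and *Rrm1*, the large reductase subunit, 50.6 and 60.6 CPM. *Hist1h2ap*, a replication-dependent histone H2A gene, had 239 CPM (205 to 276) and 312 CPM (276 to 350), which made it the most abundant of the 43 genes in 4OH-tamoxifen precursors. Its near-identical copies in the histone clusters can share reads, so its level is uncertain. The entry cyclins *Ccne1* (24.6 and 15.4 CPM) and *Ccne2* (15.6 and 14.3 CPM) were among the scarcest genes. Replication transcripts of precursors were thus led by the histone and the clamp partner, with the cyclins at the low end.

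Mitosis genes made up 71.8% (70.0 to 73.5) and 68.3% (66.6 to 70.0) of the replication and mitosis UMIs of precursors. The mitosis list is the longer one, with 28 genes against 14, and the share was not corrected for list size. Over the alternatives this share ran from 50.5% to 71.8% and from 60.9% to 71.0%, lowest with a gate of 2 UMIs and 0 of the other gate genes. *Top2a*, the topoisomerase that untangles chromosomes, had 176 CPM (148 to 209) in the untreated and 261 CPM (229 to 296) in the 4OH-tamoxifen library. *Mki67*, which encodes the Ki-67 protein coating mitotic chromosomes, had 158 CPM (131 to 189) and 167 CPM (142 to 196). *Ube2c*, the ubiquitin-conjugating enzyme of the anaphase-promoting complex, had 261 CPM (226 to 299) and 184 CPM (157 to 214), the highest of all 43 in the untreated precursors. All 3 were far lower in oligodendrocytes, at 6.51 and 6.80 CPM for *Mki67*, 1.79 and 1.97 CPM for *Ube2c* and 1.35 and 3.29 CPM for *Top2a*. *Top2a* was seen in 1.17% and 1.75% of oligodendrocytes, against 20% and 24.3% of precursors, although the oligodendrocytes were the deeper cells.

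The condensin subunits *Smc2* (131 and 130 CPM) and *Smc4* (105 and 70.5 CPM) accompanied *Top2a*. Of the centromere and kinetochore genes, which summed to 641 and 558 CPM, *Cenpa*, the centromeric histone variant, had 197 and 144 CPM, *Birc5*, a chromosomal passenger protein, 172 and 132 CPM, and *Cenpf*, a kinetochore protein, 145 and 162 CPM. Spindle and cytokinesis genes summed to 476 and 464 CPM. They were led by the central spindle regulator *Racgap1* (101 and 82.6 CPM), the spindle assembly factor *Tpx2* (93.4 and 89.2 CPM) and the midzone protein *Prc1* (80.4 and 111 CPM). The steepest gene was *Aspm*, a spindle pole protein, in the untreated library, at 34.1 times the other cells, and *Prc1* in that of 4OH-tamoxifen, at 19.6 times, where *Aspm* stood at 17.6 times. Every role group of the mitosis genes held UMIs in precursors, but also in oligodendrocytes and neurons at lower levels. Presence alone therefore does not set precursors apart.

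Among the kinases and cyclins, *Cdk1*, the kinase that starts mitosis, had 89.5 CPM (69.6 to 113) and 58.4 CPM (43.7 to 76.4). Its partner cyclins *Ccnb1* had 118 and 67.2 CPM and *Ccna2* 70.0 and 73.8 CPM. The spindle pole kinase *Aurka* had 44.1 and 15.4 CPM and the checkpoint kinase *Bub1* 19.4 and 12.1 CPM. *Cdkn2c*, which encodes the CDK4 and CDK6 inhibitor p18, is the inhibitor in the list and was highest in precursors too, at 95.9 CPM (75.3 to 120) and 81.5 CPM (64.0 to 102). In a check chosen after the data were seen, cells were picked by at least 4 UMIs of the other 42 genes alone. They were 33.8% and 30.0% of precursors and held 93.2% and 90.5% of the *Cdkn2c* UMIs of the class.

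**Figure D3:**
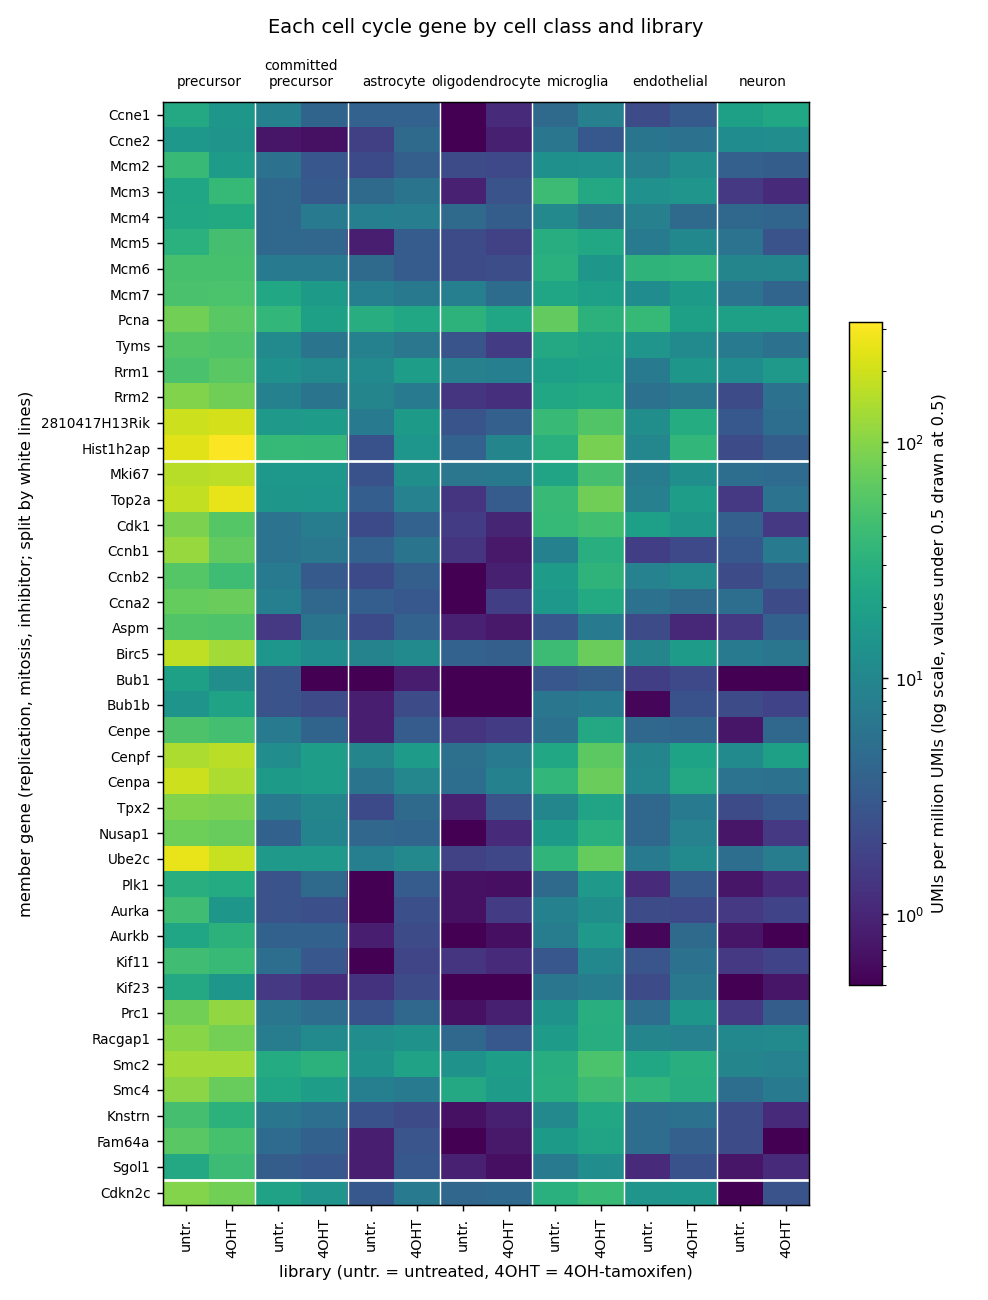
CPM of each of the 43 genes (vertical axis, replication, mitosis and inhibitor split by white lines) in the 7 large classes of both libraries, on a log colour scale from dark (low) to yellow (high). The precursor columns are the brightest for nearly all genes, microglia follow, and *Pcna*, *Smc2* and *Smc4* stay visible in oligodendrocytes, *Ccne1* and *Ccne2* in neurons.

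Within precursors, the genes were found together. *Top2a* was detected in 25 of the 40 untreated precursors with *Mki67* (62.5%) and in 60 of 77 (77.9%) of those in the 4OH-tamoxifen library, against 10.8% and 13.3% of precursors without *Mki67*. *Ccnb1* behaved alike, with *Top2a* in 70.0% and 83.3% of *Ccnb1* cells. Replication and mitosis genes also met in the same cells: *Rrm2* cells held *Mki67* in 63.9% and 57.1% of cases, against 8.99% and 12.1% of the remaining precursors. *Pcna* was less tied to *Mki67*, in 42.5% and 16.9% of *Mki67* cells, against 13.5% and 8.78% of the others. In the 4OH-tamoxifen library the intervals of this pair overlapped (9.31 to 27.1 and 6.12 to 12.1). Of the precursors with at least 4 UMIs, 67 of 77 and 124 of 138 held UMIs of both groups. By the larger count, 28 leaned to replication and 42 to mitosis in the untreated library, and 40 and 87 in the 4OH-tamoxifen library. Such counts also depend on list size, with 28 mitosis genes against 14 replication genes. Deeper cells detect both genes of a pair more easily, which these shares do not correct for.

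Microglia, the resident macrophages of the brain, had the next highest levels. In the untreated library 19 of 43 genes were at least 2-fold higher than in the other gated cells, with 10.6% of all tested genes past this bound, and in the 4OH-tamoxifen library 35 of 43, with 11.1%. The median ratios were 1.89 and 3.55, against 0.62 and 0.67 over all tested genes. The untreated count ranged from 5 to 32 over the alternatives, with 32 under size factors and 5 at a 3-fold bound, so it rests on both the scaling and the bound. The highest untreated ratio was that of *Mcm3*, at 7.92 times, and the highest in the other library was that of *Cdk1*, at 7.16 times. *Top2a* was detected in 63.2% and 77.3% of microglia with *Mki67* and in 2.37% and 4.98% of those without it.

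The libraries differed within microglia in the mitosis genes. Mitosis genes summed to 474 CPM in the untreated and 904 CPM in the 4OH-tamoxifen microglia, a ratio of 1.91 (1.75 to 2.08). Replication genes summed to 362 and 356 CPM, a ratio of 0.98 (0.88 to 1.10). All 26 mitosis genes with at least 20 UMIs over both libraries lay above 1, whereas 6 of 13 replication genes lay above and 7 below. At least 2-fold higher in the 4OH-tamoxifen library were 14 of 40 tested genes, where 6.02% of all tested genes were, and 1 was at least 2-fold lower, where 2.12% were. The median ratio was 1.70 over the 40 genes and 1.03 over all 9805 tested. Over the alternatives the count of 14 ran from 7, with a gate of 1 UMI and 0 of the other gate genes, to 26, with cells of 1200 genes or more, and the mitosis ratio from 1.59 to 3.30 in the same pair of settings. The replication ratio ran from 0.82, without *Hist1h2ap* and *Cdkn2c*, to 1.35 with cells of 1200 genes or more, where replication genes were thus higher too.

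Single genes showed the same split. *Ccnb1* went from 8.65 CPM in the untreated to 29.1 CPM in the 4OH-tamoxifen microglia (ratio 3.36, 1.85 to 6.46). *Cenpe*, a kinetochore motor, went from 5.77 to 24.9 CPM (4.32, 2.13 to 9.66) and *Plk1*, a mitotic kinase, from 4.62 to 16.6 CPM (3.60, 1.60 to 9.15). The spindle motor *Kif11* (3.50), *Cenpf* (2.66), the kinetochore protein *Knstrn* (2.29), *Tpx2* (2.24), *Aurkb* (2.14), *Cenpa* (2.06), *Prc1* (2.06) and *Ube2c* (2.01) also passed the bound, each with an interval above 1. *Mki67* stood at 21.9 CPM (15.5 to 30.1) and 47.5 CPM (37.7 to 59.1), and *Top2a* at 38.7 CPM (30.0 to 49.1) and 78.4 CPM (65.6 to 92.9). In the opposite direction, *Pcna* stood at 68.1 CPM (56.3 to 81.5) in the untreated and 31.5 CPM (23.6 to 41.2) in the 4OH-tamoxifen microglia, a ratio of 0.46 (0.33 to 0.64). *Mcm3* had 42.1 and 24.9 CPM (0.59, 0.40 to 0.88) and *Mcm6* 30.6 and 15.4 CPM. Of the 6 replication genes above 1, *Hist1h2ap* stood at 30.0 and 84.9 CPM (2.83, 2.05 to 3.97) and *2810417H13Rik* at 38.7 and 55.8 CPM (1.44, 1.04 to 2.01).

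The share of mitosis UMIs in microglia was accordingly 56.7% (54.1 to 59.3) in the untreated and 71.8% (69.8 to 73.7) in the 4OH-tamoxifen library. Of the microglia with at least 4 UMIs, 33 leaned to replication and 20 to mitosis in the untreated library, and 18 and 58 in the 4OH-tamoxifen library. Microglia of the untreated library were deeper, at a median of 4105 UMIs against 2362. Thinning to 2000 UMIs left out 11 untreated and 186 4OH-tamoxifen microglia as too shallow, and of the cells that then reached 4 UMIs, 15 leaned to replication and 13 to mitosis in the untreated library, and 10 and 52 in the other. In the microglia with at least 4 UMIs, all 5 microglial markers, the gate gene among them, were detected in both libraries. Their sum was 17729 CPM in the untreated and 14218 CPM in the 4OH-tamoxifen cells. Markers of other classes in these cells also stood higher in the 4OH-tamoxifen library, with precursor markers at 29.5 and 151 CPM, astrocyte markers at 557 and 1142 CPM and oligodendrocyte markers at 780 and 1285 CPM, while pericyte markers were at 285 and 34.8 CPM. In microglia with 0 or 1 UMI the precursor, astrocyte and oligodendrocyte lists had 72 and 102, 826 and 1482, and 1097 and 1629 CPM. The median Scrublet doublet score was 0.037 and 0.043 in microglia with at least 4 UMIs, against 0.013 and 0.0088 in the rest. The part of these markers and of doublets in the difference was not tested. The difference lies between 2 pools of pups that were also separate batches, and the parts of treatment, batch and pool cannot be told apart.

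**Figure D4:**
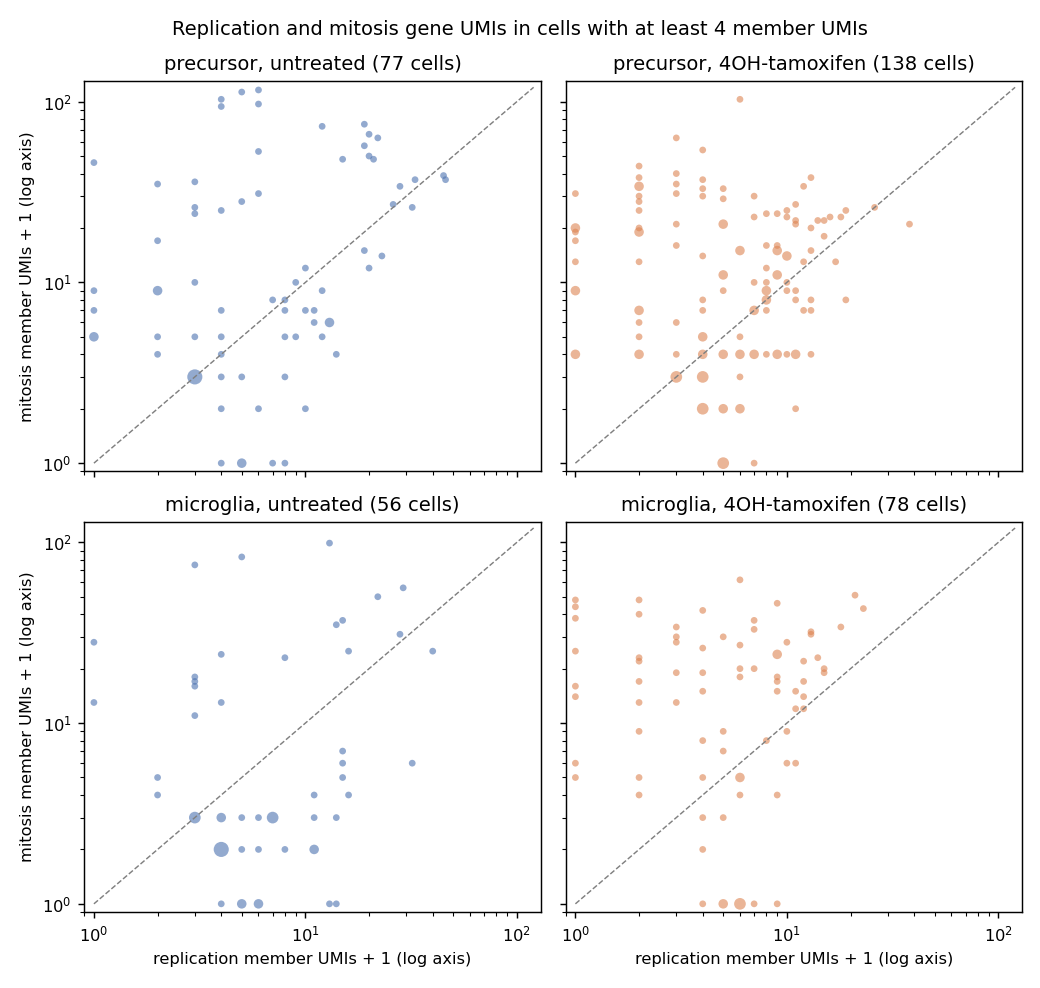
Mitosis UMIs against replication UMIs (log axes, 1 added to each) of the precursors and microglia with at least 4 UMIs of the 43 genes, in both libraries; larger points stand for several cells with the same values and the dashed line for equal counts. Of the untreated microglia 33 have more replication and 20 more mitosis UMIs, against 18 and 58 in the 4OH-tamoxifen library, while precursors number 28 and 42, and 40 and 87.

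In precursors the libraries were close in the main setting. The summed ratio of the 4OH-tamoxifen to the untreated library was 0.95 (0.90 to 1.00), with mitosis genes at 0.90 (0.85 to 0.96) and replication genes at 1.06 (0.96 to 1.17), beside a median of 0.95 over all tested genes. None of the 43 genes was at least 2-fold higher in the 4OH-tamoxifen library, where 2.87% of tested genes were, and 2 were at least 2-fold lower, where 3.10% were. These were *Aurka*, at 44.1 and 15.4 CPM (0.35, 0.17 to 0.67), and *Mcm2*, at 40.2 and 17.6 CPM (0.44, 0.22 to 0.83). The direction of the summed ratio was not settled, since it ran from 0.92 to 1.52 over the alternatives.

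Astrocytes and endothelial cells held more of these transcripts in the 4OH-tamoxifen library, from a low level. The astrocyte sum was 1.47 times the untreated one (1.32 to 1.64), and 7 of 26 tested genes passed the 2-fold bound, against 3.62% of all tested genes. They were *Hist1h2ap* (2.56 and 15.0 CPM), *Mki67* (2.56 and 12.5 CPM), *Top2a* (3.42 and 8.71 CPM), *2810417H13Rik* (7.26 and 16.9 CPM), *Cdkn2c* (ratio 2.46, 1.05 to 6.69), *Ccne2* and *Tpx2*, of which the last pair had intervals that included 1. The astrocyte ratio ran from 1.35 to 2.29 over the alternatives, with 2.29 at no more than 10% mitochondrial UMIs and 2.25 at 1200 genes or more. In endothelial cells the sum was 1.31 times higher (1.19 to 1.45), though this turned below 1 under stricter gates, and 7 of 29 genes passed, against 3.82%, led by *Hist1h2ap* (9.96 and 36.1 CPM) and *Prc1* (4.98 and 15.5 CPM). The other 5 were *Cenpa* (ratio 2.49), *Cenpf* (2.25), *2810417H13Rik* (2.25), *Top2a* (2.24) and *Rrm1* (2.15), each with an interval above 1. Oligodendrocytes had a summed ratio of 1.02 (0.93 to 1.11) and 4 of 23 genes past the bound, against 2.00%, *Hist1h2ap* (3.81 and 9.54 CPM), *Tpx2* and *Mcm3* (both 2.93, 1.01 to 11.6) and *Top2a* (2.44, 1.00 to 7.18). *Hist1h2ap* was therefore at least 2-fold higher in the 4OH-tamoxifen library in 4 classes, microglia, astrocytes, endothelial cells and the non-dividing oligodendrocytes. Its ratio was 1.31 (1.08 to 1.58) in precursors and 0.96 (0.75 to 1.24) in committed precursors, at 38.4 and 37.1 CPM in the latter.

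**Figure D5:**
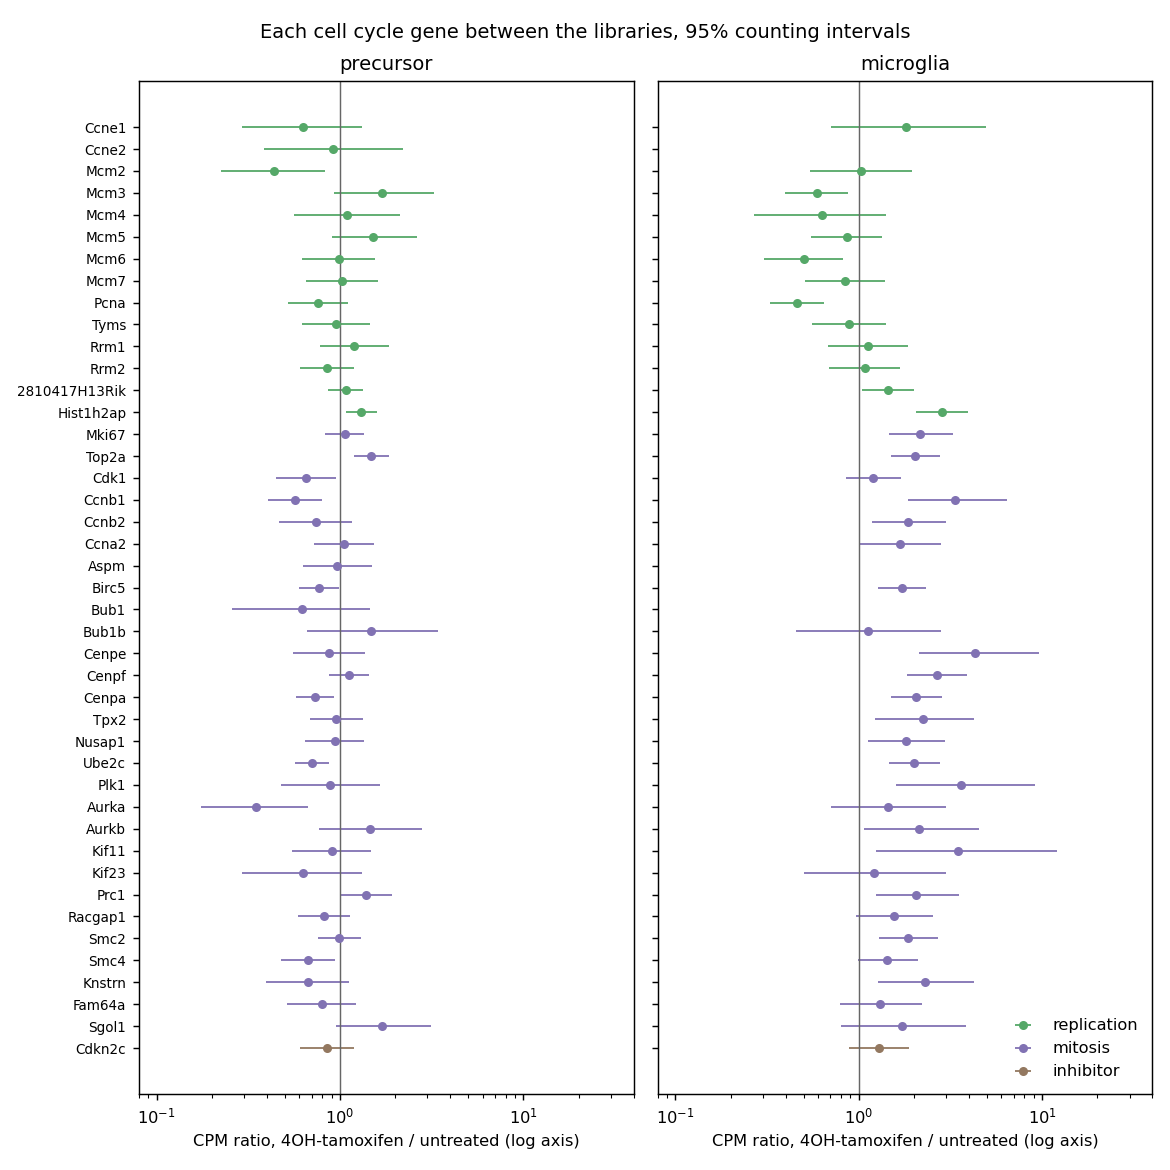
Ratio of CPM, 4OH-tamoxifen over untreated (log axis), for each tested gene in precursors and microglia, with exact 95% intervals, coloured by replication, mitosis or inhibitor. In microglia all 26 mitosis genes lie above 1 and *Pcna* lies at 0.46, whereas in precursors the lowest genes are *Aurka* at 0.35 and *Mcm2* at 0.44.

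The astrocytes that reached 4 UMIs were few, 12 of 791 (1.52%) and 29 of 1682 (1.72%), and they were mixed in their markers. Their 5 astrocyte markers summed to 6766 and 5870 CPM, against 11676 and 10529 CPM in astrocytes with 0 or 1 UMI of the list. Their 5 precursor markers summed to 1012 and 879 CPM, against 171 and 222 CPM. Lymphocyte markers summed to 248 CPM in those 29 cells of the 4OH-tamoxifen library and to 0 in the 12 untreated cells. The part of these cells' identity, or of droplets with more than 1 cell, in the astrocyte values was not tested. Among all astrocytes 33 of the 43 genes in the untreated library and 14 in that of 4OH-tamoxifen were at least 2-fold lower than in the other gated cells, where 25.9% and 19.9% of tested genes were.

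Committed oligodendrocyte precursors, the next step towards myelination, held far less than precursors. None of the 43 genes was at least 2-fold higher than in the other gated cells in either library, where 7.24% and 6.14% of tested genes were, and 7 and 6 were at least 2-fold lower, where 26.1% and 23.5% were. The level was uneven within the class. In a split chosen after the data were seen, *Gpr17*-gated cells that also held a *Pdgfra* UMI (77 and 153 cells) had 1924 and 1791 CPM, and 22.1% and 19.6% of them reached 4 UMIs. Those without a *Pdgfra* UMI (412 and 1312 cells) had 216 and 251 CPM, and 5.58% and 2.29% reached 4. The median depth was 3621 and 2302 UMIs in the cells with a *Pdgfra* UMI and 5113.5 and 2612 in those without. In the committed precursors that reached 4 UMIs, the 5 oligodendrocyte markers summed to 7615 and 5691 CPM, against 2165 and 3361 CPM in those with 0 or 1. The 5 microglial markers summed to 283 and 391 CPM, against 101 and 113, and the 5 markers of the class itself to 3555 and 3115 CPM, against 5897 and 5508. The part of these markers in the share was not tested. Between the libraries, 2 of 38 tested genes were at least 2-fold higher in 4OH-tamoxifen committed precursors, where 2.94% of all tested genes were, and 2 were at least 2-fold lower, where 1.32% were. These were *Aspm* (1.48 and 5.96 CPM, ratio 4.03, 1.40 to 15.9) and *Nusap1* (3.69 and 9.26 CPM, 2.51, 1.24 to 5.61) on the one side and *Ccnb2* (7.38 and 3.09 CPM, 0.42, 0.20 to 0.87) and *Ccne1* (8.49 and 3.97 CPM, 0.47, 0.24 to 0.91) on the other.

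In oligodendrocytes 39 of 43 genes in the untreated library and 40 in that of 4OH-tamoxifen were at least 2-fold lower than in the other gated cells, where 40.1% and 40.7% of tested genes were; the untreated count fell to 25 with a gate of 2 UMIs and 0 of the other gate genes. A few genes stayed above this low level. *Pcna* had 32.3 CPM (27.2 to 38) and 22.7 CPM (19.7 to 26.0), *Smc4* 24.5 and 17.3 CPM and *Smc2* 13.5 and 18.1 CPM. PCNA is known to serve DNA repair as well as replication. *Rrm1* and *Mcm7* followed at 8.30 and 8.08 CPM in the untreated library, and *Hist1h2ap* and *Cenpa* at 9.54 and 8.45 CPM in the other.

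Neurons showed the entry cyclins. *Ccne1* had 19.8 CPM (13 to 28.8) and 23.3 CPM (17.9 to 29.8), which was 4.10 and 6.74 times the other gated cells, and *Ccne2* had 11.7 CPM (6.70 to 19.0) and 11.8 CPM (8.09 to 16.7), 4.03 and 4.56 times. These were the 2 genes at least 2-fold higher in neurons in each library, where 25.1% and 27.2% of tested genes were. By contrast 32 and 27 genes were at least 2-fold lower, where 25.3% and 24.1% were. *Pcna* (19.8 and 19.6 CPM), *Rrm1* (11.7 and 15.9 CPM) and *Cenpf* (11.0 and 19.6 CPM) completed the 5 most abundant in neurons, while *Mki67* stood at 5.13 and 4.80 CPM and *Cdkn2c* at 0 UMIs (interval 0 to 2.70 CPM) in the untreated neurons. *Ccne1* UMIs were spread thinly, in 13.3% and 11.1% of neurons.

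The summed levels of the 2 vascular classes lay apart in the untreated library only, at 390 CPM in endothelial cells and 1697 CPM in 44 pericytes. In the 4OH-tamoxifen library their intervals overlapped (481 to 545 and 192 to 527). In endothelial cells 1 gene in the untreated library was at least 2-fold higher than in the other gated cells, where 12.9% of tested genes were, and 4 in the 4OH-tamoxifen library, where 14.4% were. The gene shared by both was *Mcm6*, at 33.2 CPM (25.3 to 42.7) and 35.1 CPM (27.2 to 44.4), or 2.94 and 4.87 times the other cells. Lower by the same bound were 16 and 2 genes, where 31.7% and 30.3% of tested genes were. Pericytes had 33 genes at least 2-fold higher in the untreated library, where 14.7% of tested genes were, and 7 in the other, where 15.2% were. At least 2-fold lower were 6 and 26, where 41.8% and 51.3% of tested genes were. The 7 rested on 1 UMI each and the 33 on 1 to 17 UMIs each, so the pericyte calls describe a handful of cells; 4 untreated pericytes held 10 or more UMIs of the list and none did in the 4OH-tamoxifen library.

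Genes outside the list were compared within a class. Precursors with at least 4 UMIs (77 and 138 cells) were set against those with 0 or 1 (110 and 255 cells), whose median depth was 2974.5 and 1738 UMIs, against 3887 and 2116.5. Of 49 other cell cycle genes, 36 of the 41 tested in the untreated and 34 of the 40 tested in the 4OH-tamoxifen library were at least 2-fold higher, where 5.71% and 6.76% of all tested genes were, and 34 were so in both. Their median ratio was 17.3 and 9.80. *Hmgb2*, a chromatin protein abundant in dividing cells, had 940 against 54.4 CPM in the untreated and 1103 against 65.7 CPM in the 4OH-tamoxifen library. *H2afz*, a histone variant, had 2630 against 589 and 2466 against 604 CPM, and *Stmn1*, which destabilises microtubules, 965 against 157 and 808 against 187 CPM. *Pbk*, a mitotic kinase, had 334 against 3.02 and 204 against 6.36 CPM. *Cdc20*, the activator of the anaphase-promoting complex, had 73 UMIs against 0 and 39 UMIs against 0, and *Cdca8*, a chromosomal passenger protein, 95 against 0 and 79 against 0.

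Some genes of that list stayed out. The D cyclins, which respond to growth signals before the cell commits to division, had ratios of 1.14 and 0.89 for *Ccnd1*, 1.19 and 1.06 for *Ccnd2* and 0.90 and 1.44 for *Ccnd3*. Of 11 genes of precursor identity 9 were tested, and none was 2-fold higher or lower in either library, with medians of 0.84 and 0.94. Of all tested genes 5.71% and 6.76% were higher and 3.47% and 3.26% lower, so none among 9 is near those shares. The list includes *Pdgfra*, the gate gene, and *Gpr17*, which the gate holds below it. *Pdgfra* had 1257 against 1441 and 1554 against 1607 CPM. *C1ql1* was the furthest below, at 1010 against 1725 and 811 against 1213 CPM (0.59 and 0.67). None of the tested early progenitor genes (8 and 7) or myelin genes (6 and 6) passed the bound in precursors. For so few genes this too is near the shares over all tested genes. Of the inhibitor genes, 1 of 2 tested in the untreated and 4 of 6 in the 4OH-tamoxifen library were at least 2-fold higher in the cells with at least 4 UMIs. *Cdkn2d*, which encodes p19, was so in both, at 157 against 42.3 and 154 against 38.2 CPM.

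The same comparison in microglia (56 against 262 and 78 against 496 cells) gave 25 of 29 and 31 of 34 tested other cell cycle genes at least 2-fold higher, where 6.72% and 7.47% of tested genes were, and 23 in both. *Hmgb2* had 669 against 74.8 and 1073 against 83.3 CPM, and *Stmn1* 937 against 135 and 1371 against 167 CPM. Of 5 tested inhibitor genes 2 were at least 2-fold higher in each library, and in the 4OH-tamoxifen library 1, *Rbl2*, was at least 2-fold lower (2 against 19 UMIs, ratio 0.499, 0.056 to 2.07). *Cdkn1a*, encoding p21, had 157 against 76.7 CPM in the untreated and 256 against 62.0 CPM in the 4OH-tamoxifen library (2.05, 1.40 to 2.97, and 4.12, 2.92 to 5.81), and *Cdkn2d* 2.47 and 5.63 times. Of the early progenitor genes 2 of 6 tested in the untreated and 3 of 7 in the 4OH-tamoxifen library were at least 2-fold higher. In the untreated library 1 was at least 2-fold lower. *Nes* and *Vim*, an intermediate filament gene, were higher in both, *Vim* by 2.97 (1.49 to 5.84) and 5.69 (2.25 to 14.7) times. Of the precursor genes 6 of 8 tested were at least 2-fold lower in the untreated library and 0 of 9 in the other, where 5.25% and 8.62% of all tested genes were. In endothelial cells 7 of 21 and 10 of 22 tested other cell cycle genes were at least 2-fold higher, where 2.85% and 2.76% of tested genes were, and 6 in both. There the cells with at least 4 UMIs were far deeper, at a median of 11311 against 3401.5 UMIs and 6302.5 against 2816, and the part of depth in that split was not tested. The microglial counts of other cell cycle genes fell to as few as 13 and 16 under stricter gates, and those of precursors to 6 and 9.

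Not all cells with these transcripts entered a class. Cells left without a class were 454 (13.6%) and 1995 (23.3%), with 1209 and 1029 CPM, and they held 78 of 370 (21.1%) and 231 of 661 (34.9%) of the cells with at least 4 UMIs. Of those, 54 and 161 held a *Pdgfra* UMI, and 42 and 102 held both *Pdgfra* and *Gpr17*. The gate requires a single marker to outweigh the other 8, so cells with like counts of both markers fell outside it, and the levels of both classes are those of the cells that the gate kept.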

How the data were processed

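The authors captured cells of the dissected parafacial slices on a 10X Chromium controller with version 2 chemistry and built a library per condition. They deposited gene-by-cell tables of UMI counts, made with bcl2fastq 2.18.0.12 and the Cell Ranger 2.2.0 count pipeline on the mouse mm10 (GRCm38) reference, with no further normalization. The libraries held 3767 and 10241 barcodes with 18496942 and 34704167 UMIs, and 40 barcode sequences occurred in both. The study left cell cycle genes out of the genes its own clustering used.

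From the counts, doublets marked by Scrublet (in scanpy 1.11.5) on each library alone were removed, 6 untreated and 544 4OH-tamoxifen barcodes. Cells with under 800 genes, over 50 hemoglobin UMIs or over 20% mitochondrial UMIs were then left out, as in the study's methods. The deposited files name no cell types, so classes were gated on single markers. UMIs were summed per class and scaled to 1000000 (CPM). Intervals were exact Poisson for CPM, Clopper-Pearson for shares and conditional binomial for ratios (scipy 1.17.1), and a 2-fold ratio of CPM with at least 20 UMIs was the bound for a call. Cells are not replicates, so no p-value was computed. The scripts were tested on simulated counts.

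The 43 genes, the classes and the other gene lists were chosen with earlier results of these data known. Of the genes, values in full were given for Mki67, Top2a, Cdk1, Mcm2 to Mcm7, Pcna, Tyms, Rrm2, Hist1h2ap and Cdkn2c, for the most abundant of each role, and values or ratios for those past the bound between libraries with an interval off 1. The 5 most abundant in neurons and oligodendrocytes were named. From the other lists, genes past the bound in both libraries were named, besides gate genes. Ccnd1, Ccnd2, Ccnd3 and C1ql1 were named after their values were seen. Promoter windows were matched through the Entrez identifiers of GENCODE vM21. Alternatives to the filters, gates, thresholds, depth and scaling are given in the closing section.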

Additional observations from a re-analysis of the deposited data

Results flagged for a closer look

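In 2 classes the summed CPM of the 43 genes lay below the other gated cells in the untreated library and above them in the 4OH-tamoxifen library, with intervals off 1 on both sides. Endothelial cells stood at 0.748 times the other cells in the untreated and at 1.13 times in the 4OH-tamoxifen library. Fibroblasts stood at 0.623 and 1.45 times, from 36 and 33 cells. A single 4OH-tamoxifen fibroblast held 33 of the 59 UMIs of that class, and without it the ratio was 0.669 (0.437 to 0.981), on the same side as the untreated one. Without their own highest cells, endothelial cells stood at 0.672 and 1.08 times (1.01 to 1.15 in the latter), an alternative chosen after the data were seen. The difference between the libraries was not tested in either class, since each condition has a single library.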

How the results depend on the processing

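No paired analysis was possible because each group has 1 library and no result comes from a test. Leaving out a library was likewise not possible. Precursors stayed above the other gated cells under all alternatives, at 6.08 and 7.64 times (untreated, then 4OH-tamoxifen) with a gate of 1 UMI and 0 of the other gate genes, which kept 47 and 219 precursors, 6.65 and 8.82 with 2 UMIs and 0 of the others, 7.21 and 7.35 with the mean of each cell's CPM, 8.91 and 8.79 with size factors, 8.81 and 9.15 with marker-list gates, 9.68 and 10.6 with at most 10% mitochondrial UMIs, and 15.1 in the 4OH-tamoxifen library with at least 1200 genes. Their ratio between libraries turned above 1 in 7 settings, at 1.52 with 1200 genes, 1.16 with both strict gates, 1.05 with 10% mitochondrial UMIs and with the mean of cells, 1.04 with marker-list gates and 1.00 with size factors. The microglial ratio kept its direction, at 2.41 with 1200 genes, 1.61 with marker-list gates, 1.37 with 1 UMI and 0 others and 1.36 with the mean of cells, and so did that of the mitosis genes, at 3.30, 2.15, 1.59 with 1 UMI and 1.69 with 2 UMIs and 0 others. The mitosis percent of microglia became 62.0 and 62.3 in the untreated library with the strict gates, and 74.8 with 1200 genes and 69.4 after thinning to 2000 UMIs in the other. The endothelial ratio turned to 0.4997 and 0.656 with the strict gates. The percent of precursors reaching the threshold became 35.5 (4OH-tamoxifen) at 3 UMIs, 28 and 26.0 at 6 UMIs, 20.4 and 22.7 thinned to 1000 UMIs, 26.9 and 45.5 thinned to 2000 UMIs, where 178 of 453 4OH-tamoxifen cells were deep enough, 53.1 with 1200 genes, 35.3 with 10% mitochondrial UMIs, 25.6 with 1 UMI and 0 others (all 4OH-tamoxifen) and 26.5 with marker-list gates (untreated). Other cell cycle genes past the bound in precursors fell to 6 and 20 with 1 UMI and 0 others, 6 and 9 with 2 UMIs and 0 others and 21 thinned (untreated), with fewer cells compared. CHR letters stood in 6 mitosis genes and E2F letters in 1 replication gene in the last 100 bases. The causes were not tested. Genes past the bound ranged from 29 to 43 and 40 to 43 in precursors, from 5 to 32 and 27 to 39 in microglia, and from 7 to 26 between the libraries in microglia. Over all alternatives, 92 values of the main comparisons stayed, 43 moved and 7 turned to the other side of 1. Among the further values 190 stayed, 95 moved and 3 turned. A value stayed when it lay within the interval of the main setting or, for a count, within 1.5-fold of the main count. Fibroblasts of the 4OH-tamoxifen library turned to 0.669 times the other gated cells without the cell holding the most UMIs of the list.

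Depth limits the single genes: most had under 100 UMIs in a class, so a 2-fold ratio between libraries was often within counting error. The pools, batches and treatment cannot be separated. Mbp, a myelin gene, stood at 10441 to 17976 CPM in precursors, and the part of free RNA in this was not tested, so single UMIs in a cell are weak evidence of expression. Gates on a single gene lose shallow cells and cells between states, and the 2 libraries differ in depth. Scrublet marked few doublets in the untreated library, where its automatic score threshold was 0.512, against 0.179 in the 4OH-tamoxifen library. Doublets were thus removed at unlike cut-offs.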

Other observations

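Barcodes removed only as doublets numbered 6 among the untreated and 492 among the 4OH-tamoxifen barcodes. Of these, 1 (16.7%) and 66 (13.4%) held at least 4 UMIs of the 43 genes, against 370 (11.1%) and 661 (7.72%) of the cells that were kept.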
